A study of Mus musculus with 23 samples.

Results

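The 9 genes described here encode small leucine-rich proteoglycans: Dcn, Bgn, Aspn, Fmod, Lum, Omd, Prelp, Ogn, and Podn. They were found by their symbols in the TPM table, which lists 17644 genes, and matched to the count table by gene identifier, and all 9 were among the 14364 genes tested. RNA-Seq libraries, 1 per mouse, came from the femur and tibia, cleared of marrow, of 23 female mice at 11 weeks of age, labelled C57BL6/N (C57BL/6NTac in the study's methods). WT Control (n = 5) and Sarm1-KO Control mice (KO Control, n = 6) had received saline. WT T1D (n = 6) and Sarm1-KO T1D mice (KO T1D, n = 6) had received streptozotocin, a toxin of pancreatic beta cells, at 100 mg/kg from 8 weeks of age and had been diabetic for 3 weeks. The Sarm1 deletion was global, and by the study's methods WT mice came either from the knockout colony or from a commercial supplier. Sarm1 itself had 5 to 32 counts per mouse, and mean CPM (TMM-normalized counts, scaled to library size) of 1.17 for WT Control and 0.687 for WT T1D against 0.799 for KO Control and 1.19 for KO T1D. The Sarm1 counts therefore did not separate the genotypes, and KO below means mice labelled Sarm1-KO. The study itself reports, by quantitative PCR, lower Sarm1 in Sarm1-KO bone than in WT bone. Other genes did differ between mice labelled KO and WT. By edgeR, 4 genes passed among Control mice (smallest adjusted p = 2.0e-15) and 13 among T1D mice (smallest adjusted p = 1.2e-16).

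Small leucine-rich proteoglycans are secreted matrix proteins with a curved core of leucine-rich repeats that binds collagen fibrils and sets their thickness and spacing. Several also hold growth factors of the TGF-beta family in the matrix. Decorin and biglycan carry chondroitin or dermatan sulfate chains, and fibromodulin, lumican, and osteomodulin carry keratan sulfate. Biglycan, decorin, and osteomodulin are abundant in the matrix that osteoblasts lay down.

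Most of these genes lie side by side. On GRCm38.p6, Dcn and Lum are neighbors on chromosome 10 (97479500 to 97518163 and 97565501 to 97572703, both on the plus strand), in a run with Kera and Epyc that spans 202.4 kb. Aspn, Omd, and Ogn follow each other after Ecm2 on the plus strand of chromosome 13 within 119.7 kb. Prelp (minus strand) and Fmod (plus strand) are neighbors on chromosome 1, next to Optc, within 151.1 kb. Bgn is on chromosome X and Podn on chromosome 4.

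The chromosome 13 trio is shown by sequence because its neighbors differed in the mice described below: Aspn and Omd were low where Ogn was not. Each line gives the 250 bases before the annotated start of the gene, from RefSeq on GRCm38.p6, 5′ to 3′ on the plus strand, at chr13:49544193-49544442 for Aspn, chr13:49582212-49582461 for Omd, and chr13:49607765-49608014 for Ogn. Capitals mark the TATA box letters TATAAA, the CCAAT box letters CCAAT, the GC box letters GGGCGG, and the runt-site letters TGTGGT, each on either strand.
Aspn: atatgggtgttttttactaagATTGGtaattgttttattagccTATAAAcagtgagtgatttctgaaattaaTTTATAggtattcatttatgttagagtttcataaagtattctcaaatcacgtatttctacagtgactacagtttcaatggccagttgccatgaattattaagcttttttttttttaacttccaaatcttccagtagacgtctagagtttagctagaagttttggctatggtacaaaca
Omd: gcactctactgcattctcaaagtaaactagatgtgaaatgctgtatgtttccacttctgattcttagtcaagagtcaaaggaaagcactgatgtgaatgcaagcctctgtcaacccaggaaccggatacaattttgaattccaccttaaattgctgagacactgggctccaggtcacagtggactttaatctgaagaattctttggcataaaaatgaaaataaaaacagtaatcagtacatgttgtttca
Ogn: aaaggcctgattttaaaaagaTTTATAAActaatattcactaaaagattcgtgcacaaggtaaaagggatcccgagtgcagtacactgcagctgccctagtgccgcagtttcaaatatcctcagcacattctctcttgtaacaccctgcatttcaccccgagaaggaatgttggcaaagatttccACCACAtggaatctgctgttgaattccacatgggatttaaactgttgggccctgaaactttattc
The Aspn window held CCAAT on the other strand, TATAAA as written 207 bases before the start, and TATAAA on the other strand. The Ogn window held TATAAA on both strands in overlapping positions, 227 and 229 bases before the start, and TGTGGT on the other strand 65 bases before it. The Omd window held none of the 4 letter strings. Across all 32851 RefSeq windows of this length, 12.4% held TATAAA, 33.8% CCAAT, 32.7% GGGCGG, and 14.0% TGTGGT. G and C made up 30.0% of the Aspn window, 38.4% of the Omd window, and 42.0% of the Ogn window. Windows matched 7 of the 9 members by symbol.

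Total counts ranged from 16938101 to 20135592 per mouse. A pair of WT T1D libraries, from mice A3905 and A3906, stood apart from the rest, so results that rest on them are given with and without them. Mice with IDs beginning A17 occurred in the WT groups alone, 1 in WT Control (A1757) and 3 in WT T1D. Nothing in the labels says what the ID series stands for. It is treated as a possible batch.

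Per transcript length, biglycan and decorin mRNA led the family. In WT Control bone, mean TPM (transcript abundance scaled for length and library size) was 1373 ± 297 for Bgn, 911 ± 266 for Dcn, and 386 ± 145 for Lum (SD, n = 5). The other members were far lower, at 62.9 ± 29.1 TPM for Fmod, 47.9 ± 24.3 for Aspn, 40.0 ± 13.5 for Omd, 28.0 ± 8.87 for Ogn, 25.5 ± 6.63 for Prelp, and 2.09 ± 0.734 for Podn. Bgn was above Dcn, and Dcn above Lum, in each of the 23 mice. The ranges of Bgn and Dcn overlapped between mice of a group in all 4 groups, whereas those of Prelp and Podn were separate in all 4. From Fmod down to Prelp, neighbors in this order overlapped in every group and could not be ordered beyond their spread between mice. Within mice, Omd was above Ogn in each mouse of the groups other than WT T1D (3 of 6 there). Ogn was above Prelp in each mouse of the groups other than WT Control (3 of 5 there). Neither Fmod and Aspn nor Aspn and Omd kept the same order in every mouse of any group. Together, Dcn, Bgn, and Lum made up 92.9% ± 0.971 of the summed TPM of the family in WT Control, 94.0% ± 1.30 in KO Control (n = 6), and 94.3% ± 1.47 in KO T1D (n = 6). In WT T1D the share was 89.0% ± 4.39 (n = 6), with 83.0% in the lowest mouse.

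**Figure D1:**
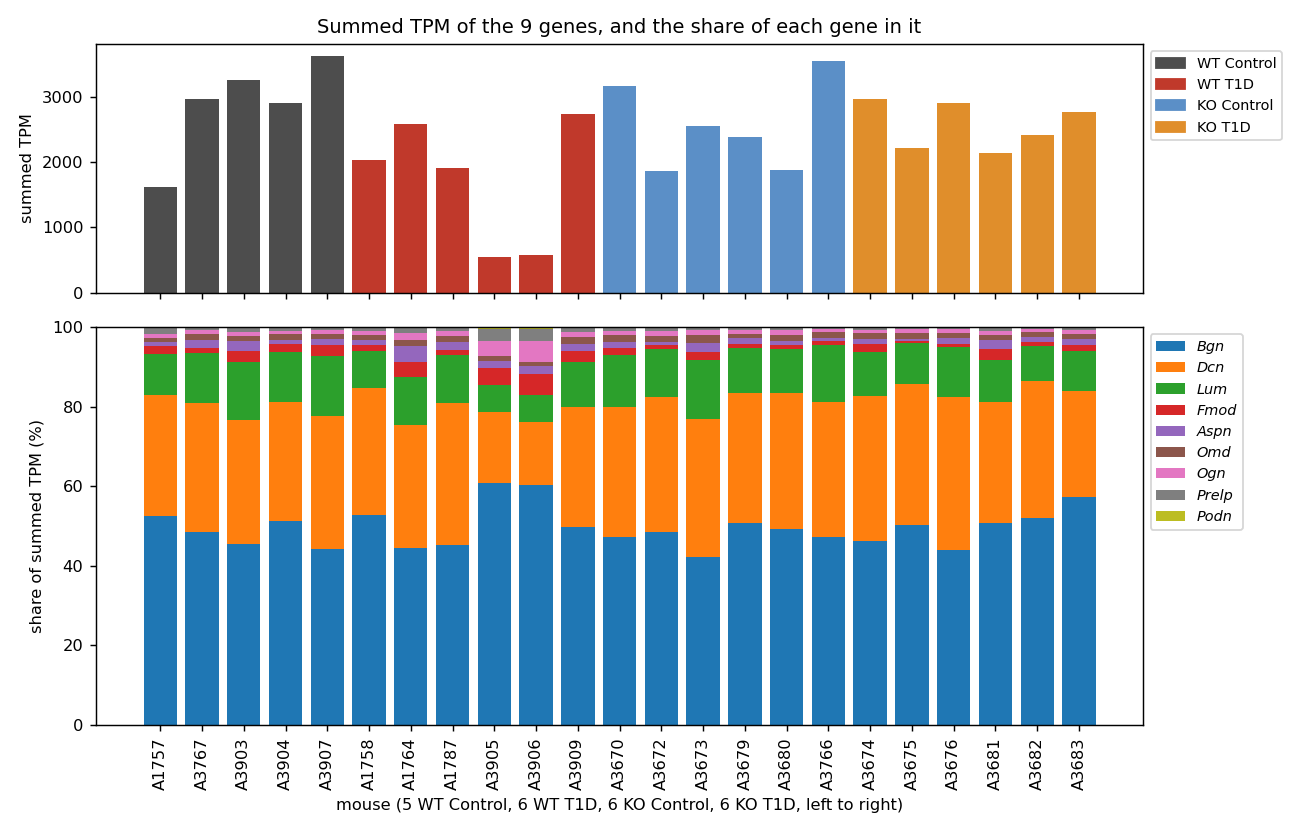
Summed TPM of the 9 genes (top, bars per mouse colored by group) and the share of each gene in that sum in percent (bottom, stacked bars), for 23 mice. The sums of WT T1D mice A3905 and A3906 are the lowest, and their bars hold less Dcn and more Ogn, Prelp, and Fmod than those of WT Control mice.

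To ask what diabetes did to this family in WT bone, WT T1D was compared with WT Control. No member passed the test after adjustment over all genes tested (edgeR quasi-likelihood test, adjusted p under 0.05), where 2.33% of the 14364 genes did. Lum, which encodes lumican, was the 1 member with an unadjusted p under 0.05, which 22.2% of all genes had. DESeq2 called 0 of the 9 members and 6.98% of all genes. On log2(TPM + 1), limma called 3 members, Dcn, Bgn, and Lum, where 35.9% of all genes were called and the median of all genes was shifted by -0.24. With each library centered on its median, an alternative chosen after seeing the data, it called 0 members and 3.54% of all genes. The members differed in direction. The proteoglycan genes Dcn, Bgn, Lum, and Omd had lower fitted levels in WT T1D, and Ogn and Podn had higher ones. Of the 9 log2 fold changes 6 were below 0, with a median of -0.18, against 51.9% and a median of -0.01 over all genes tested.

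Dcn encodes decorin. Its levels in WT Control were 665, 1149.5, 1185, 1087, and 1478 CPM. In WT T1D they ran from 155 to 1084 CPM with a median of 991. The groups overlapped, but 2 of 6 diabetic mice were far below every control and all 6 were below the control median. The log2 fold change was -0.58 ± 0.38 (SE, edgeR, adjusted p = 0.368).

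Lum had the lowest log2 fold change of the family. Its WT Control levels were 252, 483, 606, 506, and 749 CPM, and its WT T1D levels ran from 71.7 to 473 CPM with a median of 347. All 6 diabetic mice were again below the control median, and 2 were below every control. The log2 fold change was -0.82 ± 0.39 (SE, edgeR, adjusted p = 0.211).

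Bgn, which encodes biglycan, had 1499, 2215, 2227, 2429.6, and 2543 CPM in WT Control and 765 to 2293 CPM in WT T1D, with a median of 1841. Here 5 of 6 diabetic mice were below the control median. The log2 fold change was -0.44 ± 0.24 (SE, edgeR, adjusted p = 0.279).

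Omd encodes osteomodulin, a keratan sulfate proteoglycan of bone. It had 23.7, 55.3, 51.1, 63.2, and 65.1 CPM in WT Control and 10.2 to 72.6 CPM in WT T1D, with a median of 46.7. The diabetic range passed the control range at both ends, with 2 of 6 mice below it and 1 above. The log2 fold change was -0.38 ± 0.38 (SE, edgeR, adjusted p = 0.585).

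Aspn encodes asporin, which binds collagen and TGF-beta and carries no sulfated sugar chain. Its levels were 28.0, 91.5, 113, 48.8, and 82.7 CPM in WT Control and 21.4 to 177 CPM in WT T1D, with a median of 60.3. Fmod, encoding fibromodulin, had 65.8, 72.1, 163, 111, and 178 CPM in WT Control and 51.5 to 212 CPM in WT T1D, with a median of 75.4. For both genes the diabetic mice spread beyond the controls on either side. Fitted log2 fold changes were -0.06 ± 0.46 for Aspn and -0.18 ± 0.41 for Fmod (SE, edgeR, adjusted p = 0.957 and 0.841).

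Ogn, Podn, and Prelp did not share the low values. Ogn encodes osteoglycin, also called mimecan. It had 28.9, 55.3, 57.8, 37.6, and 52.8 CPM in WT Control and 39.6 to 93.2 CPM in WT T1D, with a median of 56.2, and 3 of 6 diabetic mice were above every control. Podn encodes podocan, a collagen-binding member, and had only 24 to 166 counts per mouse. It had 2.63, 3.62, 5.48, 4.34, and 3.31 CPM in WT Control and 3.21 to 9.34 CPM in WT T1D, with a median of 5.41. Log2 fold changes were 0.37 ± 0.20 for Ogn and 0.53 ± 0.30 for Podn (SE, edgeR, adjusted p = 0.293 and 0.303). Prelp, which encodes a proline- and arginine-rich protein that links basement membranes to collagen, had 68.4, 39.2, 79.7, 56.1, and 60.0 CPM in WT Control and 44.7 to 84.5 CPM in WT T1D, with a log2 fold change of 0.02 ± 0.18 (SE, edgeR, adjusted p = 0.971). No member had groups free of overlap, against 2.19% of all genes.

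**Figure D2:**
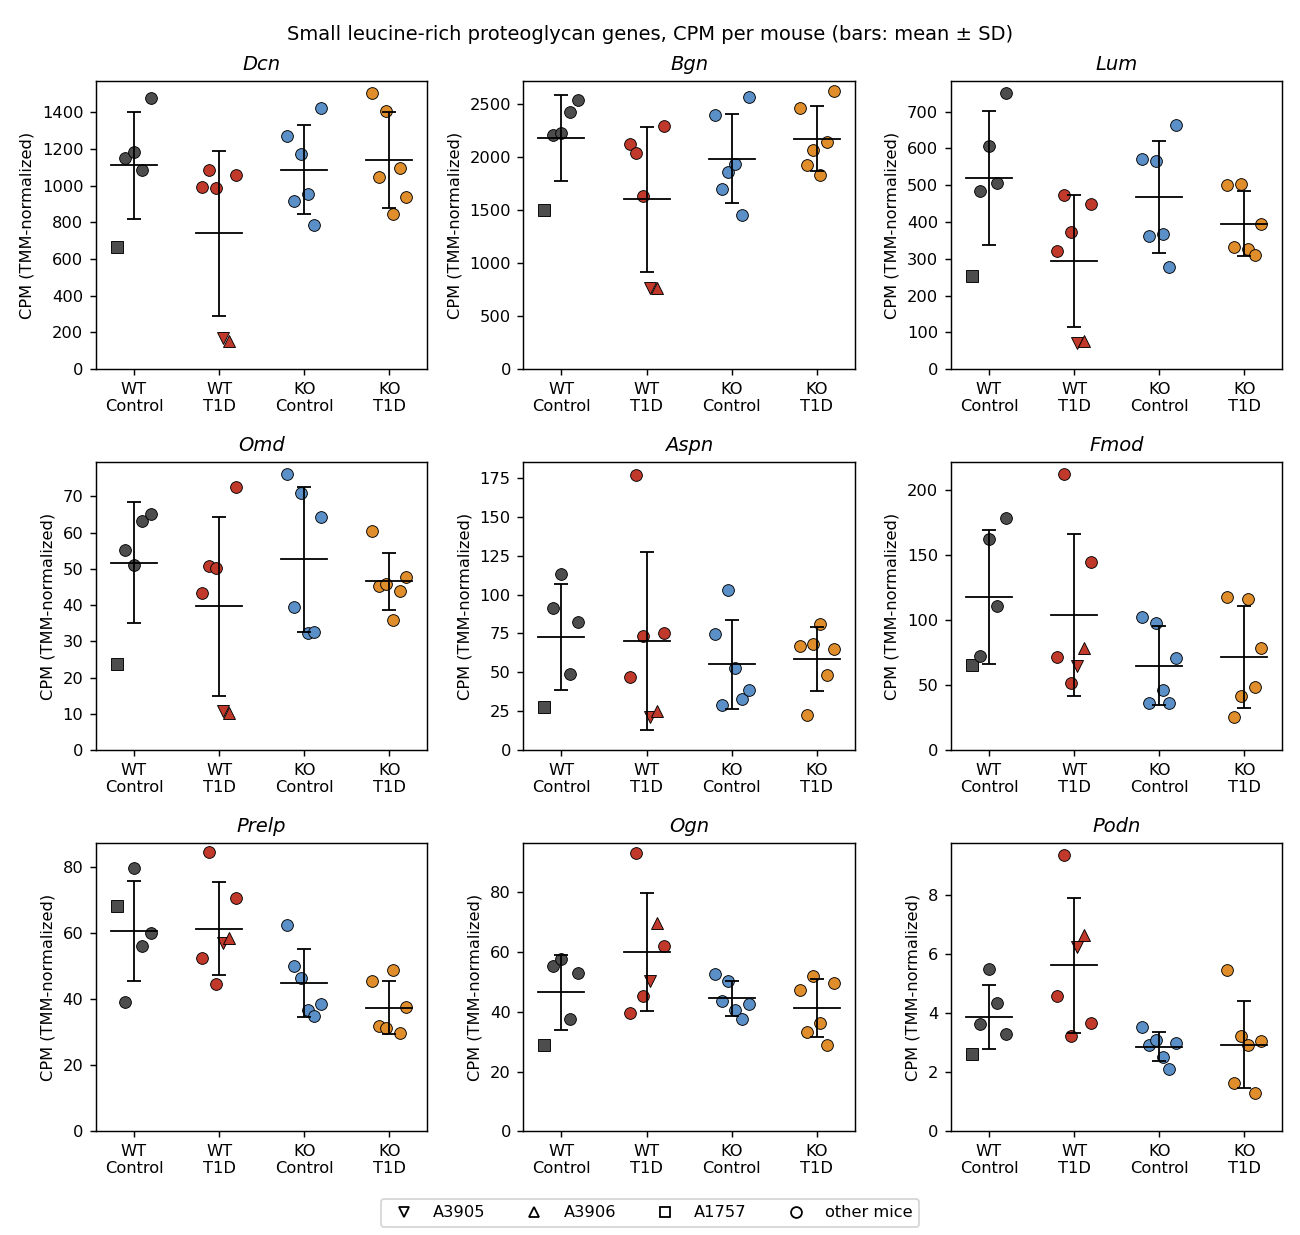
CPM of each member (y axis, from 0) in each of 23 mice by group (x axis), with horizontal lines at the mean and bars of 1 SD. Triangles mark WT T1D mice A3905 and A3906, which are lowest for Dcn, Bgn, Lum, and Omd, and the square marks WT Control mouse A1757, the lowest control for all members except Prelp.

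The lowest values of Dcn, Bgn, Lum, Omd, and Aspn in WT T1D were in the same pair of mice. Mouse A3905 was 6.26-fold and mouse A3906 6.95-fold below the WT Control mean for Dcn, on the log2(CPM + 0.5) scale. For Lum the distances were 6.78- and 6.43-fold, for Omd 4.40- and 4.59-fold, and for Bgn 2.81- and 2.79-fold. These mice held the 2 lowest ranks of all 23 for each of those genes, and ranks 1 and 3 from the bottom for Aspn, which was 3.00- and 2.57-fold lower. Fmod was 1.67- and 1.38-fold lower, at ranks 8 and 13, and its lowest diabetic mouse was A1787, at 51.5 CPM. Prelp was at the control mean in both mice (log2 differences of -0.05 and -0.01). Ogn was 0.16 and 0.63 above it on the log2 scale, and Podn 0.66 and 0.74 above it. The neighbors Omd and Ogn, whose upstream sequences are printed above, thus moved apart, and the ratio of Ogn to Omd TPM was 3.46 in A3905 and 5.29 in A3906, against 0.454 to 0.919 in WT Control. Bgn also kept more of its level than Dcn, with a ratio of Bgn to Dcn TPM of 3.41 and 3.83 in these mice and 1.14 to 2.16 in the other 21.

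**Figure D3:**
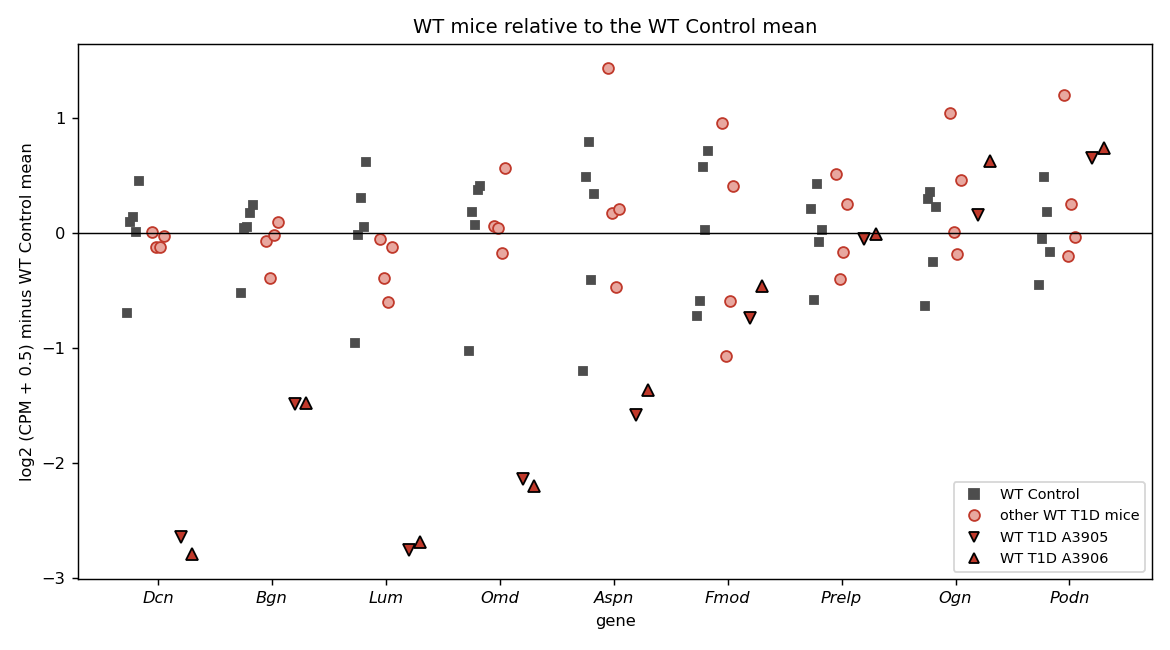
Difference of each WT mouse from the WT Control mean in log2(CPM + 0.5) (y axis) for each member (x axis): squares are WT Control mice, circles the 4 other WT T1D mice, and triangles A3905 and A3906. The triangles lie at -2.65 and -2.80 for Dcn, near 0 for Prelp, and at 0.66 and 0.74 for Podn.

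For Dcn, Bgn, Lum, and Omd the 4 other WT T1D mice were nearer to the controls. Their median difference from the WT Control mean was -0.07 for Dcn, -0.04 for Bgn, and 0.05 for Omd on the log2 scale, and -0.26 for Lum, for which all 4 were below it. Mouse A1764 was above every control for Aspn, Podn, Ogn, Fmod, and Prelp, at 1.43, 1.20, 1.04, 0.96, and 0.51 above the control mean on the log2 scale. Refitted without A3905 and A3906, the log2 fold changes were -0.11 ± 0.20 for Dcn, -0.11 ± 0.16 for Bgn, and -0.37 ± 0.26 for Lum (SE, edgeR, adjusted p = 0.884, 0.849, and 0.636). Omd, Aspn, and Fmod turned to 0.07, 0.36, and 0.02. Ogn and Podn were at 0.37 ± 0.22 and 0.42 ± 0.34. Leaving out A1764 alone lowered Ogn to 0.20 and Podn to 0.33. Without A3905 and A3906 no gene of the whole table (0.0%) passed the test in this comparison, by edgeR, and 1571 had an unadjusted p under 0.05.

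Several marker lists moved with the members in A3905 and A3906. Summed over 8 osteoblast markers, CPM was 3513 and 3115 in these mice and 9103 to 16346 in WT Control. Chondrocyte markers (8 genes) summed to 199 and 231 CPM against 865 to 1937, with Matn3 at 0 in A3905 and Matn1 at 0 in A3906. Fibroblast and periosteum markers (8 genes, none at 0) summed to 327 and 359 CPM against 439 to 905, and tendon markers (5 genes, Kera at 0 in both) to 14.6 and 14.2 against 19.7 to 41.2. Osteocyte markers (6 genes) summed to 442 and 472 CPM, inside the control range of 315 to 569, and muscle markers (7 genes) were also inside their control range. B cell markers (6 genes, Igll1 at 0 in A3905) summed to 151 and 184 CPM against 319 to 909, and endothelial markers (5 genes, none at 0) to 217 and 206 against 231 to 308. Erythroid markers (11 genes found) summed to 238694 and 233722 CPM against 98247 to 143964, neutrophil markers (8 genes) to 41947 and 38051 against 23622 to 32672, and marrow stromal markers (5 genes) to 1978 and 2010.1 against 1449 to 1620.3. Macrophage markers (5 genes, none at 0) summed to 1109 and 1214 CPM against 912 to 1054, and adipocyte markers (5 genes, Lep at 0 in both) to 100.0 and 105 against 56.4 to 82.2. Summed CPM weighs abundant genes most. By gene, log2 fold changes in WT T1D were below 0 for 7 of 7 tested chondrocyte and 4 of 8 fibroblast and periosteum markers. Counts were 4 of 5 for tendon, 4 of 6 for B cell, 5 of 5 for endothelial, and 4 of 5 for macrophage markers. They were 1 of 8 for neutrophil, 2 of 5 for marrow stromal, and 0 of 4 tested for adipocyte markers. Without A3905 and A3906 they were 7, 4, 0, 1, 4, 3, 5, 2, and 0 in this order. Though their sums were inside the control range, 4 of 6 osteocyte markers were below 0, with a median of -0.36. Of these 6 markers, 0 passed by edgeR and 1 by DESeq2, and 2 had an unadjusted p under 0.05. Without A3905 and A3906, 5 of 6 osteocyte markers were below 0, with a median of -0.42. In bulk RNA, fewer cells of a type and less RNA per cell cannot be told apart, and the part of these cell types in the result was not tested. Of the osteoblast list, 7 of 8 genes had log2 fold changes below 0 in WT T1D, with a median of -0.69, and 2 passed the test as lower, where 2.33% of all genes passed in either direction. These were Runx2 and Ibsp, named here after their values were seen. Their log2 fold changes were -0.66 and -0.78 (edgeR, adjusted p = 0.0451 and 0.0236). Spp1 (osteopontin), also named after its value was seen, was at 0.66 ± 0.32 (SE, edgeR, adjusted p = 0.230). Of the erythroid list, 7 of 11 passed as higher. Each of these calls was lost when any 1 of 6 mice was left out: WT Control mice A3767, A3903, A3904, and A3907, or WT T1D mice A3905 and A3906. Without WT T1D mouse A1787, Runx2 (edgeR, adjusted p = 0.0670) and all erythroid calls were also lost, and Ibsp stayed (adjusted p = 0.0422). Runx2 was also above 0.05 without KO mouse A3670, A3673, A3675, A3676, A3679, A3680, or A3681 (edgeR, adjusted p up to 0.0564). Over all genes, leaving out 1 mouse left 0 calls (A3767 or A3907) to 1262 calls (WT T1D mouse A3909). Without both A3905 and A3906, 8 of 8 osteoblast genes were below 0 with a median of -0.31, and 11 of 11 erythroid genes above 0 with a median of 0.41, with 0 called in either list.

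Within the ID series the comparison looked different again. The A17 control, A1757, was the lowest control for 8 of the 9 genes, and the 3 A17 diabetic mice were all above it for Dcn (990.4 to 1084 against 665 CPM), Lum (322 to 473 against 252), Omd (43.2 to 50.8 against 23.7), and Bgn (1635.1 to 2123 against 1499). Fitted on the WT mice of the A17 series with the spread taken from them and the KO mice, an alternative chosen after seeing the data, the log2 fold changes were 0.62 ± 0.32 for Dcn, 0.62 ± 0.41 for Lum, 1.02 ± 0.43 for Omd, and 0.37 ± 0.27 for Bgn (SE, edgeR, adjusted p = 0.970 for each). The lone control is there assumed to vary like the other mice. Of all genes 0.0% passed in that fit, and 720 had an unadjusted p under 0.05. Among mice with IDs A36 to A39, 4 WT Control and 3 WT T1D, all 3 diabetic mice were below all 4 controls for Dcn and Lum, where 16.4% of all genes had groups free of overlap. There the log2 fold changes were -1.40 ± 0.46 for Dcn, -1.55 ± 0.48 for Lum, and -0.87 ± 0.29 for Bgn (SE, edgeR, adjusted p = 0.0458, 0.0349, and 0.0457). These 3 genes passed the test in that subset, as did 15.5% of all genes, in which A3905 and A3906 are 2 of the 3 diabetic mice.

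Most genes of 7 lists of related function also had log2 fold changes below 0 in WT T1D, without passing the test. Of the other small leucine-rich repeat genes, 5 of 8 had enough counts to test and 0 passed by edgeR or DESeq2, with 1 unadjusted p under 0.05. All 5 were below 0: Chad (chondroadherin, a cartilage member, -0.97 ± 0.52), Nyx (-0.80 ± 0.59), Podnl1 (-0.36 ± 0.15), Tsku (-0.33 ± 0.20), and Kera (keratocan, -0.20 ± 0.77; SE, log2 fold change). Epyc, Optc, and Nepn had too few counts. Of 22 enzymes that build chondroitin and dermatan sulfate chains, 17 were below 0 and 0 passed by edgeR, with a median of -0.23 and 10 unadjusted p-values under 0.05. DESeq2 called 2 of them, Dsel and Chsy1, named after their values were seen. The most highly expressed, Chst12, B3gat3, and Chst11, had log2 fold changes of -0.05 ± 0.09, -0.05 ± 0.08, and -0.17 ± 0.13. Of 9 enzymes of keratan sulfate synthesis, 6 were below 0, 0 passed by edgeR or DESeq2, 2 had an unadjusted p under 0.05, and the median was -0.16. B4galt1 (0.15 ± 0.07), St3gal1 (-0.23 ± 0.10), and B3gnt2 (-0.06 ± 0.09) were the most highly expressed of these. Without A3905 and A3906, 4 of 5 of the other leucine-rich repeat genes were below 0 (median -0.42), 15 of 22 chondroitin and dermatan sulfate enzymes (median -0.14), and 5 of 9 keratan sulfate enzymes (median -0.07).

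Fibrillar collagens, on which these proteoglycans sit, also had lower fitted levels in WT T1D. All 11 fibrillar collagen genes were below 0, with a median log2 fold change of -0.90, and 0 passed by edgeR. Here 3 had an unadjusted p under 0.05, and DESeq2 called 2, Col27a1 and Col2a1, named after their values were seen. Col1a1 was at -0.91 ± 0.49, Col1a2 at -0.90 ± 0.48, and Col11a1 at -0.92 ± 0.56 (SE, edgeR, adjusted p = 0.282, 0.274, and 0.346). In A3905 and A3906 the 11 genes summed to 5711 and 4374 CPM, against 56684 to 111994 in WT Control. Without these mice all 11 were still below 0, with a median of -0.37. Of the propeptide proteases and enhancers, which trim procollagen and, in the case of Bmp1, probiglycan, 4 of 5 were tested and all 4 were below 0. None passed by edgeR or DESeq2, and 2 had an unadjusted p under 0.05. Bmp1 was at -0.69 ± 0.25, Pcolce at -0.51 ± 0.30, and Pcolce2 at -1.06 ± 0.38. Growth factors bound by the family (5 of 6 below 0, median -0.32) and receptors reported for decorin and biglycan (7 of 8 tested below 0, median -0.21) had 0 calls by edgeR and DESeq2 and 1 unadjusted p under 0.05 each. Tgfb1 was at -0.16 ± 0.13 and Lrp1 at -0.35 ± 0.13. Without A3905 and A3906, 4 of 4 propeptide genes (median -0.23), 3 of 6 growth factors (median 0.0040), and 8 of 8 receptors (median -0.22) were below 0. On the shifted log2(TPM + 1) scale limma called 2 of 5 of the other leucine-rich repeat genes, 13 of 22 and 4 of 9 of the chain enzymes, 11 of 11 fibrillar collagens, 3 of 4 propeptide genes, 3 of 6 growth factors, and 6 of 8 receptors in this comparison, where it called 35.9% of all genes.

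In KO mice, T1D was compared with Control in the same way. Dcn ran from 784 to 1424 CPM in KO Control, with a median of 1066, and from 845 to 1504 CPM in KO T1D, with a median of 1070.3. Lum ran from 279 to 663 CPM (median 467) and from 310.3 to 504 CPM (median 363), and Bgn from 1460.2 to 2573 CPM (median 1901) and from 1832 to 2628 CPM (median 2111). For Prelp and Ogn, 3 of 6 KO T1D mice were below every KO Control. For Omd 5 of 6 were below the control median, whereas for Bgn and Aspn 1 of 6 was. Ranges overlapped for all 9 genes, where 0.258% of all genes had groups free of overlap. By edgeR 0 of 9 members passed or had an unadjusted p under 0.05, and DESeq2 also called 0, where the background was 0.0% of all genes called and 3.15% with an unadjusted p under 0.05. Log2 fold changes ran from -0.26 ± 0.18 for Prelp to 0.13 ± 0.40 for Fmod. The 95% intervals still allowed -0.64 to 0.77 for Dcn and -0.97 to 0.48 for Lum, which hold the log2 fold changes fitted in WT. The intervals for Bgn (-0.31 to 0.58) and Ogn (-0.49 to 0.27) did not hold their WT values of -0.44 and 0.37. Those WT values had 95% intervals of their own, -0.91 to 0.02 and -0.03 to 0.77, which overlapped the intervals in KO. Without A3905 and A3906 the WT value of Bgn was -0.11, inside its KO interval.

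**Figure D4:**
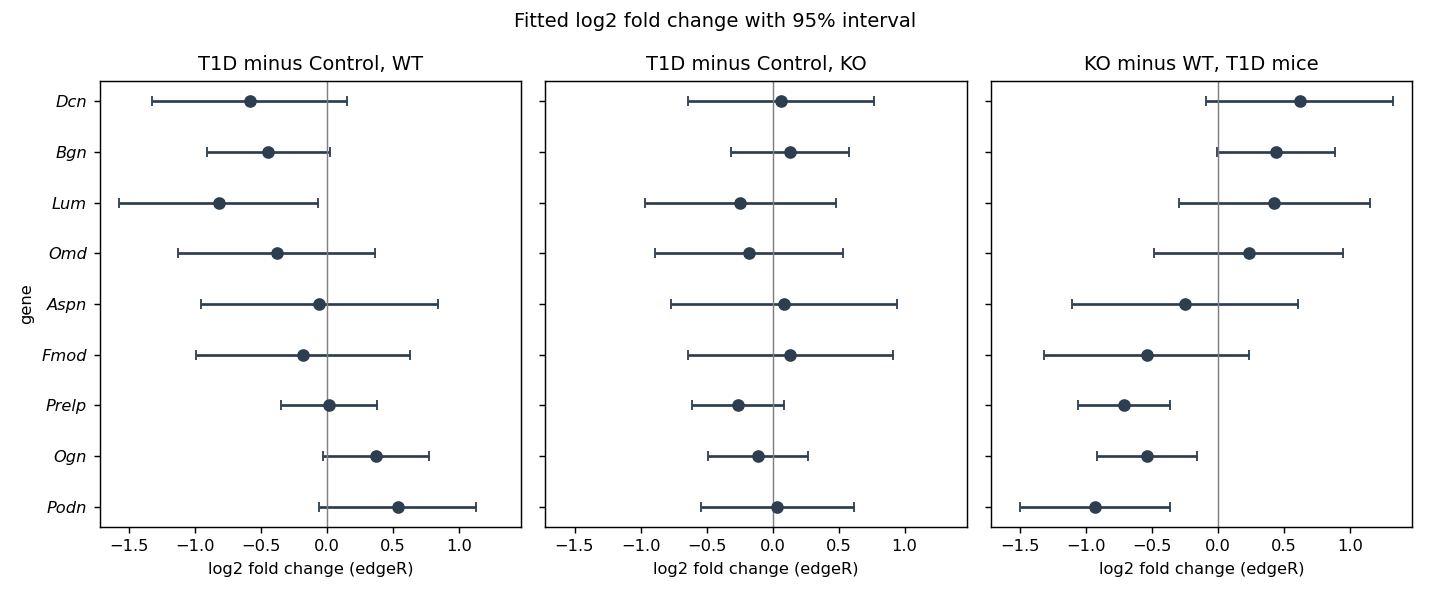
Log2 fold change of each member from edgeR (x axis) with its 95% interval, for T1D minus Control in WT, T1D minus Control in KO, and KO minus WT among T1D mice. In the third panel Prelp, Ogn, and Podn lie below 0 (-0.71, -0.54, and -0.93), with unadjusted intervals that exclude it. The intervals of the other members include 0. Among these, Dcn, Bgn, Lum, and Omd lie above it (0.62, 0.44, 0.43, and 0.23), and Aspn and Fmod below it.

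The difference between genotypes in the response to diabetes was tested directly as an interaction. None of the 9 members passed by edgeR, none had an unadjusted p under 0.05, and DESeq2 called 0, against 0.0% of all genes called and 10.2% with an unadjusted p under 0.05. The largest fitted differences, KO response minus WT response, were 0.65 ± 0.52 for Dcn, 0.58 ± 0.53 for Lum, and 0.57 ± 0.33 for Bgn, and -0.48 ± 0.28 for Ogn and -0.50 ± 0.42 for Podn (SE, log2). Without A3905 and A3906 they were 0.17 ± 0.26 for Dcn, 0.12 ± 0.34 for Lum, 0.24 ± 0.21 for Bgn, -0.48 ± 0.30 for Ogn, and -0.39 ± 0.45 for Podn.

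Without diabetes, KO and WT bone were compared to ask whether the genotype alone moved the family. By edgeR 0 of 9 members passed, as did 0.0278% of all genes, and DESeq2 called 0. No member had groups free of overlap, against 0.613% of all genes. Fmod and Prelp had an unadjusted p under 0.05, as did 4.8% of all genes. Fmod ran from 36.02 to 103 CPM in KO Control, with a median of 58.9, and 3 of 6 KO mice had less than any WT Control (log2 fold change -0.86 ± 0.41, SE, edgeR, adjusted p = 0.999). Prelp ran from 35.0 to 62.5 CPM, with a median of 42.5, again with 3 of 6 below the WT range (-0.43 ± 0.18, SE, edgeR, adjusted p = 0.999). For Dcn the log2 fold change was -0.03 ± 0.38, for Bgn -0.13 ± 0.24, for Lum -0.15 ± 0.39, and for Omd 0.03 ± 0.38. Podn was at -0.44 ± 0.30, Aspn at -0.40 ± 0.46, and Ogn at -0.06 ± 0.20. For Podn, Ogn, and Fmod all 6 KO mice were below the WT Control median, and for Podn 2 were below every WT Control. Of the 9 log2 fold changes 8 were below 0, with a median of -0.15, against a median of -0.0003 over all genes tested. Chad was at -1.74 ± 0.53 in this comparison (SE, edgeR, adjusted p = 0.999), and chondrocyte markers summed to 495 to 1054 CPM in KO Control against 865 to 1937 in WT Control.

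Among diabetic mice, Prelp, Ogn, and Podn had lower fitted levels in KO than in WT. Prelp ran from 29.6 to 48.8 CPM in KO T1D, with a median of 34.7, and 4 of 6 KO mice were below all 6 WT T1D mice, whose range was 44.7 to 84.5 CPM. Its log2 fold change was -0.71 ± 0.18, with rank 91 by p among the 14364 genes (SE, edgeR, adjusted p = 0.0864). Ogn ran from 29.0 to 51.8 CPM in KO T1D and had a log2 fold change of -0.54 ± 0.19, with 3 of 6 KO mice below all WT T1D mice (SE, edgeR, adjusted p = 0.193). Podn ran from 1.31 to 5.46 CPM and had a log2 fold change of -0.93 ± 0.29, with 4 of 6 KO mice below all WT T1D mice (SE, edgeR, adjusted p = 0.150). No member passed by edgeR, against 0.0905% of all genes, or had groups free of overlap, against 0.863%. These were the 3 members with an unadjusted p under 0.05, which 17.1% of all genes had. DESeq2 called 1 member, Prelp, at -0.72 (adjusted p = 0.0110), and 1.66% of all genes. On log2(TPM + 1) limma called 0 members here, in the interaction, and in the comparisons of KO T1D with KO Control and of the Control groups.

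The values of Prelp, Ogn, and Podn did not rest on A3905 and A3906. Without these mice the log2 fold changes between KO T1D and WT T1D were -0.75 ± 0.20 for Prelp, -0.54 ± 0.21 for Ogn, and -0.83 ± 0.32 for Podn (SE, edgeR, adjusted p = 0.345, 0.667, and 0.666). Dcn and Bgn went from 0.62 ± 0.36 and 0.44 ± 0.23 to 0.14 ± 0.19 and 0.11 ± 0.15. WT T1D mouse A1764 had the highest CPM of all 23 mice for Prelp, Ogn, and Podn. With 1 mouse left out at a time, Prelp ran from -0.80 to -0.61, Ogn from -0.65 to -0.39, and Podn from -1.22 to -0.74. Adjusted p there reached 0.189, 0.443, and 0.381 (edgeR). Among mice with IDs A36 to A39, Prelp (-0.74 ± 0.20) and Ogn (-0.57 ± 0.17) passed the test (SE, edgeR, adjusted p = 0.0283 and 0.0421), as did 10.8% of all genes. Every KO mouse is in that ID series, so a difference between KO and the WT mice of the A17 series cannot be told apart from a difference between series. Muscle markers moved in the same direction, all 7 below 0 with a median of -1.09, 0 called by edgeR or DESeq2 and 0 with an unadjusted p under 0.05, at 172 to 3593 CPM in KO T1D against 1864 to 4579.8 CPM in WT T1D. Adipocyte markers (4 of 5 tested) were also all below 0, with a median of -1.59, 3 unadjusted p-values under 0.05, and 0 called by edgeR. DESeq2 called 2 of them, Retn and Plin1, named after their values were seen. Erythroid markers were below 0 for 11 of 11, with a median of -0.47 and 10 unadjusted p-values under 0.05, 0 called by edgeR and 5 by DESeq2. Without A3905 and A3906 these medians were -0.66 and -0.28. Tendon markers summed to 11.1 to 49.4 CPM in KO T1D and 14.2 to 59.7 CPM in WT T1D, and the part of these cell types was not tested. Ccn2, a growth factor bound by the family, listed as Ctgf, had a log2 fold change of -1.02 ± 0.23 (SE, edgeR, adjusted p = 0.0644) and was called by DESeq2.

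The members fell into different patterns across mice. Over the 21 mice without A3905 and A3906, Pearson's r of log2(CPM + 0.5) between Dcn, Bgn, Lum, and Omd was 0.71 to 0.86 over the 6 pairs, and Spearman's rho 0.66 to 0.83. Between Fmod, Prelp, Ogn, and Podn r was 0.50 to 0.77 over the 6 pairs, and rho 0.45 to 0.74. Between these sets of genes, the 16 pairs ranged from -0.05 to 0.61 by r and from 0.04 to 0.68 by rho. The highest values between sets thus reached into the second set by r, and into both sets by rho. Aspn was closest to Ogn (r = 0.80) and Fmod (r = 0.76), and less close to Omd (r = 0.48), its neighbor. The mice of all 4 groups enter these values, which share libraries and depth, and the split into sets was chosen after the values were seen, so they describe these libraries and were not tested.

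The genes other than the 9 members whose levels followed each member most closely over the 23 mice were ranked. Pearson's r of log2(CPM + 0.5) was used, again as a description with no test. Dcn was closest to Col5a2 (r = 0.99), a fibrillar collagen, and to Serpinf1 and Mamdc2. Bgn was closest to Kdelr2 (r = 0.98), a receptor that returns proteins to the endoplasmic reticulum, to Fkbp10, a collagen chaperone, and to Creb3l1, and Lum to Adam12 (r = 0.98), Ppic, and Fkbp9. Omd was closest to Kcnk2 (r = 0.95), Tgfb3, and Nr4a2. Over the 21 mice without A3905 and A3906 the first of these had r = 0.91 for Col5a2 with Dcn, 0.92 for Kdelr2 with Bgn, 0.93 for Adam12 with Lum, and 0.81 for Kcnk2 with Omd. Aspn was closest to Thbs2 (r = 0.94), Lrrc15, and Tnn, and Fmod to Timp2 (r = 0.90), Matn2, and Ssc5d. Prelp was closest to Chad (r = 0.78), itself a leucine-rich repeat protein of cartilage, and to Ccdc3 and Fah, Ogn to the smooth muscle gene Tagln (r = 0.85), Col8a2, and Chst8, and Podn to Ccdc3 (r = 0.85), Epn2, and Ank.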

How the data were processed

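The authors deposited, for each of 23 mice, RSEM expected counts rounded to whole numbers, without normalization. They also deposited TPM values computed by the sequencing provider. Both came from oligo dT, strand-marked, paired-end DNBSEQ libraries whose reads passed SOAPnuke before alignment (HISAT, Bowtie2) on GRCm38.p6. Tool versions are not given in the sources used here. The sequence windows and positions came from RefSeq on the same build. Members were tested in R 4.3.3 with edgeR 4.0.16 (quasi-likelihood, TMM, 4 group means, 14364 genes reaching 10 counts in 5 or more mice). P-values were adjusted over all genes tested by Benjamini-Hochberg, with 0.05 as the threshold, and SEs were taken from the F statistic. DESeq2 1.42.0 and limma 3.58.1 on log2(TPM + 1) were alternatives, and scripts were tested on simulated counts. CPM are TMM-normalized. Each library came from a different mouse, and in the 55 pairs of mice within groups the chi-square per gene was 11.1 to 188, so no library was a repeat.

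Members, gene lists, and alternatives were chosen with earlier results of these data known. Named genes were the members, the other small leucine-rich repeat genes, at most the 3 most highly expressed genes of each further list, the 3 genes most like each member, and Sarm1. Other genes are named with a remark, or in marker lists as listed at 0.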

Additional observations from a re-analysis of the deposited data

Results flagged for a closer look

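Within each group the lowest and the highest mouse was set against the others for all 9 members, 36 sets of values in all. CPM were compared on the log2 scale used above. By Dixon's test 2 values were flagged as far from the rest, near the 1 in 20 of the 36 sets that chance gives. Both were in WT Control mouse A1757, the only control of the A17 ID series. Bgn was 1499 CPM in this mouse and 2215 to 2543 CPM in the other 4 controls. Omd was 23.7 CPM in this mouse and 51.1 to 65.1 CPM in the others. On the log2 scale the gap was 0.739 of the range for Bgn and 0.759 for Omd, against a critical value of 0.71. On the CPM values printed here both shares are below 0.71, so the flags hold on the log2 scale only. Mice A3905 and A3906 were not flagged, since the rule measures the gap from 1 mouse to its nearest neighbor and these mice were close to each other.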

How the results depend on the processing

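No paired analysis was possible because no mouse ID is shared between groups and replicate numbers follow accession order. The count of members called was 0 in each comparison and stayed 0 when any 1 of the 23 mice was left out. On log2(TPM + 1), and on log2(TPM + 0.1), limma called 3 members in WT T1D against WT Control: Dcn, Bgn, and Lum. This scale moved the median of all genes by -0.24 there, by 0.17 between KO T1D and WT T1D, and by 0.20 in the interaction. With each library centered on its median, an alternative chosen after seeing the data, limma called 0 members (adjusted p = 0.162 for Dcn, 0.161 for Bgn, and 0.109 for Lum). Mice with IDs A36 to A39 gave 3 calls in WT (Dcn, Bgn, and Lum) and 2 between KO T1D and WT T1D (Prelp and Ogn), and DESeq2 gave 1 there (Prelp). The calls over all genes ran with them: in WT, 334 by edgeR, 1002 by DESeq2, 5154 by limma on log2(TPM + 1), 88 with genes of at least 1 count, 2211 in A36 to A39 mice, 0 without A3905 and A3906, 0 in the WT mice of the A17 series (also chosen after seeing the data), and 0 to 1262 when 1 mouse was left out. Between KO T1D and WT T1D the last range was 3 to 95.

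Reversed log2 fold changes were as follows. In WT, Prelp was -0.26 (TPM + 1), -0.27 (TPM + 0.1), and -0.051 (total counts, which moved the median of all genes by -0.08), and Aspn, Fmod, and Omd were 0.36, 0.023, and 0.066 without A3905 and A3906. In the A17 series Dcn was 0.62, Bgn 0.37, Aspn 1.82, Fmod 0.76, Lum 0.62, Omd 1.02, and Prelp -0.18. In KO, Podn was -0.055 (TPM + 1), -0.12 (TPM + 0.1), and -0.010 (total counts). Between Controls, Omd was -0.15 in A36 to A39 mice. Between diabetic mice, Aspn was 0.20 (TPM + 1), 0.22 (TPM + 0.1), and 0.52 (A36 to A39), and without A3905 and A3906 Lum was -0.033 and Omd -0.22. The interaction without these mice was -0.27 for Aspn and -0.25 for Omd. Leaving out 1 mouse at a time turned small values of 14 results, none of them called. In WT, Aspn ran from -0.59 to 0.16, Fmod from -0.52 to 0.020, and Prelp from -0.11 to 0.13. In KO, Aspn ran from -0.049 to 0.36, Dcn from -0.036 to 0.15, Fmod from -0.073 to 0.30, and Podn from -0.24 to 0.19. Between Controls, Dcn ran from -0.17 to 0.091, Lum from -0.32 to 0.021, Ogn from -0.19 to 0.029, and Omd from -0.16 to 0.13. Between diabetic mice Aspn ran from -0.45 to 0.26, and in the interaction Aspn ran from -0.068 to 0.67 and Omd from -0.0085 to 0.47. The cause of these turns was not tested.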
